A study of Mus musculus with 18 samples.

Results

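The genes described here are Myc and 36 genes of ribosome biogenesis, which make 37 of the 45777 genes in the deposited table. They were taken by exact gene symbol from a fixed list of 6 genes of RNA polymerase I (Pol I) and its factors, 2 abundant nucleolar proteins, 7 genes of small nucleolar ribonucleoproteins (snoRNPs), 12 small subunit factors, 9 large subunit factors and Myc. Their messenger RNA was measured in a macrophage-like mouse line, RAW264.7, of labelled genotype WT, in 6 groups of 3 libraries, each after 6 h in serum-free DMEM. Of the 4 groups that received 20 uM cGAMP, 1 also received 20 uM of the compound 7a, 1 also 10 uM SB24011 and 1 also 20 uM SB24011, and the last had nothing added to cGAMP. The other 2 groups were 20 uM SB24011 alone and DMSO. cGAMP, a cyclic dinucleotide, is an agonist of STING, SB24011 is described by the submitters as a blocker of the contact between STING and TRIM29, and 7a is described as its negative analog. All data come from 1 cell line, and no group had 7a without cGAMP. Whether replicate libraries stem from separate cultures is not stated in the labels, and p-values here cover the spread between libraries, which may be technical.

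Ribosomes are assembled in the nucleolus, where Pol I transcribes the ribosomal DNA into a long precursor RNA. Small nucleolar RNAs and their proteins modify this precursor, and large sets of assembly factors fold and cut it into the RNAs of the small and large subunits. The transcription factor Myc is known to bind the E-box CACGTG with its partner Max and to raise the transcription of many ribosome biogenesis genes, and macrophages express Myc in response to growth and inflammatory signals.

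The libraries held 45165780 to 65810517 counts. The macrophage markers Lyz2, Cd68 and Csf1r reached at least 1433, 531 and 702 CPM in every library, where CPM is the count scaled to a common library size by TMM. Of 12 markers of T cells, B cells, fibroblasts and epithelium, 9 had 0 counts, among them Cd3e, Ms4a1, Col1a1 and Epcam, and the other 3 (Cd4, Cd79a and Pdgfra) reached at most 0.158 CPM. All 37 members passed the filter on low counts that left 14650 genes for testing. On the length-corrected FPKM scale, the highest member in DMSO was Npm1, which encodes the nucleolar chaperone nucleophosmin, at a level of 1362 ± 101 FPKM (SD, n = 3). The lowest was Myc at 0.672 ± 0.0966 FPKM, and the next lowest was the Pol I subunit gene Polr1e at 5.79 ± 0.563 FPKM.

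SB24011 lowered most of these genes while it raised Myc, both without and with cGAMP. Of the 37 members, 24 fell and 2 rose with 20 uM SB24011 against DMSO, where 24.3% of all genes tested fell and 20.4% rose (44.6% called in either direction). The median log2 fold change was -0.28 over the members and -0.01 over all genes. On top of cGAMP, 10 uM SB24011 lowered 21 members and raised 2, where 19.1% of all genes fell and 19.9% rose (39% called in either direction). At 20 uM on top of cGAMP, 21 members fell and 3 rose, where 20.6% of all genes fell and 21.7% rose (42.3% called in either direction). The members' median was -0.24 at both doses, against 0.02 over all genes. A call here is an adjusted p under 0.05 from edgeR's quasi-likelihood test over all genes. Under the 17 alternative treatments of the data, 17 of the 26 calls against DMSO, 15 of 23 at 10 uM and 14 of 24 at 20 uM held throughout. The 9 calls against DMSO that ended under at least 1 alternative were those of Polr1e, Ubtf, Nop58, Dkc1, Gar1, Utp15, Wdr12, Pes1 and Gnl3, of which Dkc1 and Wdr12 ended only without library set 2. Without library set 3 (replicate 3 of every group), the count at 20 uM on cGAMP was 15, where 29.8% of all genes were called. With scaling by library size alone, 57.4% of the called genes were higher with SB24011 against DMSO, in place of 45.7%. The members then split into 17 lower and 3 higher, where 18.3% of all genes fell and 24.7% rose.

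The members together took about 1% of all counts or less. With cGAMP and 20 uM SB24011 they held 0.775% ± 0.0770 of the counts (SD, n = 3), and with cGAMP alone 0.882% ± 0.0551, with ranges (0.691 to 0.841% and 0.818 to 0.915%) that overlap. On cGAMP, the share was 0.781% ± 0.0681 with 10 uM SB24011 added and 0.845% ± 0.0655 with 7a added, and both ranges (0.7095 to 0.845% and 0.779 to 0.910%) overlap that of cGAMP alone. It was 0.914% ± 0.0367 with SB24011 alone (0.876 to 0.950%) and 0.9975% ± 0.0368 in DMSO (0.959 to 1.03%). Every library of the 5 treated groups, cGAMP alone among them, lay below every DMSO library. The share is of raw counts, without TMM scaling. With scaling by library size alone, the median log2 fold change with cGAMP against DMSO was -0.19 over all genes and -0.23 over the members. Npm1 and Ncl, which weigh most in the share, averaged 150100 and 138800 counts in DMSO, against 30090 for Nolc1, the next highest.

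**Figure D1:**
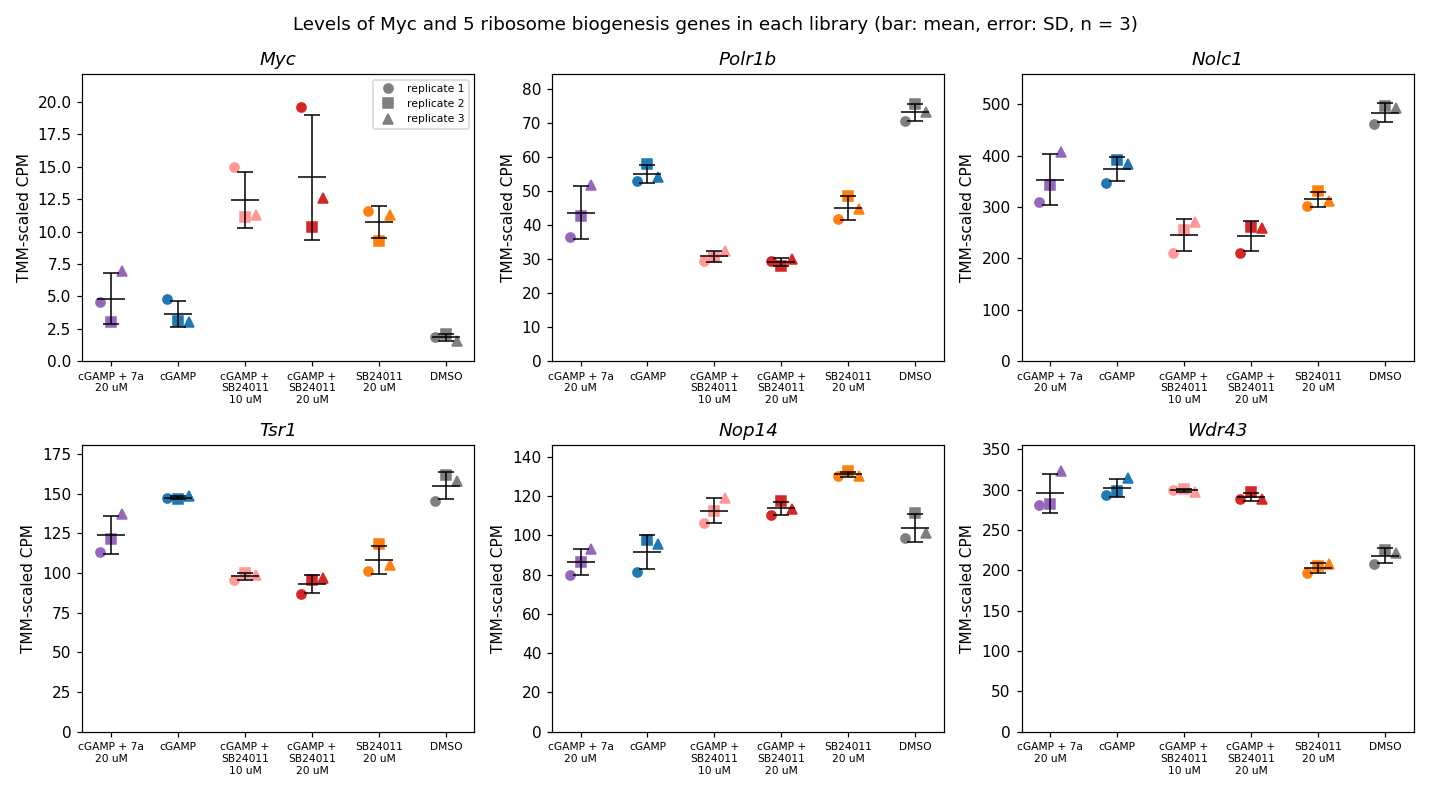
TMM-scaled CPM (vertical axis) of Myc, Polr1b, Nolc1, Tsr1, Nop14 and Wdr43 in each of the 18 libraries by group (horizontal axis). Points are libraries with a symbol for the replicate, and bars are the mean with the SD of 3. Myc and Nop14 were higher in every SB24011 library than in their controls, Polr1b, Nolc1 and Tsr1 were lower, and Wdr43 followed cGAMP.

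Myc lies on chromosome 15 (61985341 to 61990361 in GRCm38) and encodes the transcription factor named above. Its level was 11.6, 9.30 and 11.3 CPM with SB24011 alone, against 1.86, 2.06 and 1.55 CPM in DMSO. With cGAMP and 20 uM SB24011 it was 19.6, 10.4 and 12.6 CPM, and with cGAMP and 10 uM SB24011 15.0, 11.1 and 11.3 CPM, against 4.76, 3.09 and 3.00 CPM with cGAMP alone. Every library with SB24011 lay above every library without it. Myc rose 5.84-fold with SB24011 against DMSO, a log2 fold change of 2.55 ± 0.30 (SE; edgeR adjusted p = 4.73e-06). On cGAMP it rose by 1.96 ± 0.29 on the log2 scale at 20 uM (edgeR adjusted p = 5.05e-05) and by 1.77 ± 0.28 at 10 uM. These 3 calls held under all 17 alternatives. cGAMP alone raised Myc by 0.99 ± 0.31 (edgeR adjusted p = 0.0193), with no overlap between cGAMP and DMSO libraries. That call ended without DMSO replicate 1 (1.00, edgeR adjusted p = 0.0527), DMSO replicate 3 (0.89, edgeR adjusted p = 0.0715) or cGAMP replicate 1 (0.73, edgeR adjusted p = 0.118). It also ended with limma on log2(FPKM + 1) and without library set 1 or 3, and held in 11 of 17 alternatives. The level with 7a on cGAMP was 4.54, 3.03 and 6.92 CPM, which overlaps the cGAMP range, and its difference of 0.41 ± 0.29 was not called.

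Promoter sequences were available from RefSeq (GRCm38.p6) for 30 of the 37 members, and Myc itself was not among them. The E-box CACGTG, which reads alike on both strands, was searched in the 300 bases around the start (250 before to 50 after). It lay there in 8 of these 30 genes (26.7%), against 11.8% of 10459 tested genes. A gene counts if any of its promoters holds the element. By promoter, the share was 21.6% of the 37 promoters of these 30 genes. It was 9.97% of the promoters of tested genes and 7.15% of all 32851 promoters. The 8 were Rrn3, Wdr43, Utp4, Utp20, Ltv1, Tsr1, Nop2 and Pes1. The ETS element CCGGAAGT, searched on both strands, lay in 10 of the 30 (33.3%), against 9.18% of tested genes. By promoter it was 27.0% of the members' promoters, against 7.97% of those of tested genes and 3.89% of all promoters. These were 2 of 8 motifs searched on both strands, and not all 8 were more frequent among the members. The CCAAT box (CCAAT) lay in 33.3% of the 30 genes, against 43.5% of tested genes. It lay in 27.0% of the members' promoters, against 38.3% of those of tested genes and 37.4% of all. The SP1 box (GGGCGG) lay in 80.0% of the genes, against 65.6%. It lay in 75.7% of the members' promoters, against 59.4% of those of tested genes and 35.7% of all. From 100 bases before to 50 after the start, the SP1 share by gene was 46.7%, against 56.2% of tested genes. The NRF1 element (CGCATGCG) lay in 1 of the 30 genes (3.3%), against 4.28%. It lay in 2.7% of the members' promoters, against 3.73% of those of tested genes and 1.87% of all. The KAISO-type (CTCGCGAG), E2F (TTTGGCGC) and ATF4 (TGATGCAA) elements lay in 1, 1 and 0 of the 30 genes, against 2.14%, 1.1% and 0.79% of tested genes. With SB24011 against DMSO, 6 of the 8 genes with an E-box fell and none rose, and 14 of the 22 without it fell and 1 rose. The median log2 fold change was -0.31 with the E-box and -0.26 without it. The sequences below run from 100 bases before to 50 after the start, 5′ to 3′ on the gene's strand, with the E-box in capitals. They show 3 genes with an E-box that fell with SB24011 (Tsr1, Nop2 and Utp4), Wdr43, which has an E-box and was not called with SB24011 but rose with cGAMP, and Polr1b, which fell by the most of the Pol I genes and has no E-box in the 300 bases. The E-box begins at position 24 from the start in Tsr1, -60 in Nop2, 15 in Utp4 and 17 in Wdr43. All 5 genes lie on the plus strand, with windows at chr11:74897980-74898129 for Tsr1, chr6:125131783-125131932 for Nop2, chr8:106893540-106893689 for Utp4, chr17:71616115-71616264 for Wdr43 and chr2:129100896-129101045 for Polr1b.
Tsr1: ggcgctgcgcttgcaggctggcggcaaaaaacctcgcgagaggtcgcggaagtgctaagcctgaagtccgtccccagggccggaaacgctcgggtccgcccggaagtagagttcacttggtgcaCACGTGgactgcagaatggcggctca
Nop2: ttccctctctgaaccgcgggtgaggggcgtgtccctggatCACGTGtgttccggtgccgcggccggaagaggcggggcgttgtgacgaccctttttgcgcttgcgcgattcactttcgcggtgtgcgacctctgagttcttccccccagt
Utp4: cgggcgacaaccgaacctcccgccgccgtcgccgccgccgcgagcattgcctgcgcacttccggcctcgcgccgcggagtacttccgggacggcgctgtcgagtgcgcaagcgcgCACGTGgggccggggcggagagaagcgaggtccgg
Wdr43: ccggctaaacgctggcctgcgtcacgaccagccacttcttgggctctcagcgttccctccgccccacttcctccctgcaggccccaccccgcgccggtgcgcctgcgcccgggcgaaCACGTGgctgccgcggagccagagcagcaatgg
Polr1b: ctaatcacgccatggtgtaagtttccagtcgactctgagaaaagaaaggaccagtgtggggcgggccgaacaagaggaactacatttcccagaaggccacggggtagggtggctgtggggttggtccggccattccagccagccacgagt

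Among the Pol I genes, 5 of 6 fell with SB24011 against DMSO, and 4 of 6 fell on cGAMP at each dose. Polr1b (chromosome 2, 129100970 to 129128060), which encodes the second-largest Pol I subunit, changed most. It had 41.8, 48.7 and 44.8 CPM with SB24011 alone, against 70.8, 75.8 and 73.2 CPM in DMSO. It had 29.4, 27.9 and 30.1 CPM with cGAMP and 20 uM SB24011 and 29.4, 30.7 and 32.5 CPM at 10 uM, against 52.9, 58.2 and 54.1 CPM with cGAMP alone. The groups did not overlap in either setting, and the lowest levels were those with both agents. The log2 fold change was -0.70 ± 0.09 against DMSO (edgeR adjusted p = 1.11e-05), -0.84 ± 0.09 at 10 uM on cGAMP and -0.92 ± 0.09 at 20 uM on cGAMP (edgeR adjusted p = 9.62e-07), a fall of 38.5% with SB24011 alone and 47.1% at 20 uM on cGAMP.

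Polr1a, the gene of the catalytic Pol I subunit, fell by 0.26 ± 0.06 with SB24011 against DMSO and by 0.36 ± 0.06 at 20 uM on cGAMP. Rrn3, whose product links Pol I to the ribosomal DNA promoter, had 102, 102 and 101 CPM with SB24011 alone, against 123, 123 and 131 CPM in DMSO, and fell by 0.30 ± 0.05 (edgeR adjusted p = 1.00e-04). Polr1e, a Pol I subunit gene of low level, fell by 0.28 ± 0.09 with SB24011 against DMSO (edgeR adjusted p = 0.0163). That call ended without DMSO replicate 1 (-0.23) or SB24011 replicate 3 (-0.23). It also ended with library size alone, with limma at both pseudocounts and without library set 1 or 3. The fall of 0.30 at 20 uM on cGAMP ended without cGAMP replicate 1 (-0.27) or without replicate 1 (-0.22) or 2 (-0.27) of cGAMP with 20 uM SB24011. Library size alone, only the groups compared and leaving out library set 1 or 2 ended it too. Each of these 2 calls held in 10 of 17 alternatives. Ubtf, which encodes the factor UBF that binds the ribosomal DNA, fell by 0.39 ± 0.12 with SB24011 against DMSO. That call ended in 5 of 17 alternatives, namely library size alone (-0.31), limma (-0.26 and -0.27), and without library set 2 (-0.35) or set 3 (-0.41). On cGAMP its differences with SB24011 were -0.25 at 10 uM and -0.28 at 20 uM, and neither was called. Polr1c, a subunit that Pol I shares with Pol III, was not called in any comparison and stayed between 40.1 and 52.5 CPM in all 18 libraries.

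The 2 abundant nucleolar protein genes were not called in any comparison by the edgeR fit over all 18 libraries without a replicate block. Npm1 had 2393, 2301 and 2548 CPM with SB24011 alone, against 2308, 2485 and 2440 CPM in DMSO, so the groups overlap. Ncl, which encodes nucleolin, had 1711, 1928 and 1937 CPM with SB24011 alone, against 2029, 2431 and 2218 CPM in DMSO. Those groups do not overlap, and the log2 difference was -0.26 ± 0.12 (edgeR adjusted p = 0.0793). With the replicate number as a block, which pairs the libraries here, Ncl was called lower by 0.26 ± 0.04 on the log2 scale (edgeR adjusted p = 4.57e-05), where 53.3% of all genes were called. It was also called lower with only the groups compared (-0.23) and without library set 1 (-0.27). At 20 uM on cGAMP it was called lower by DESeq2 (-0.29), without cGAMP replicate 1 (-0.37), without replicate 2 of cGAMP with 20 uM SB24011 (-0.34) and without library set 1 (-0.26).

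Of the 7 snoRNP genes, 6 fell with SB24011 against DMSO and 5 at each dose on cGAMP. Nolc1 (chromosome 19, 46075847 to 46085543) encodes Nopp140, a chaperone of snoRNPs. It had 302, 331 and 312 CPM with SB24011 alone, against 462, 496 and 493 CPM in DMSO, and 211, 261 and 259.8 CPM with cGAMP and 20 uM SB24011, against 348, 391 and 384 CPM with cGAMP alone. No treated library reached a control library, and the falls were 0.62 ± 0.10 both against DMSO (edgeR adjusted p = 0.000136) and on cGAMP (edgeR adjusted p = 0.00016). Dkc1, the gene of the pseudouridine synthase dyskerin, had 120.5, 135 and 135 CPM with SB24011 alone, against 172, 188 and 180.1 CPM in DMSO. With cGAMP and 20 uM SB24011 it had 72.9, 99.0 and 103 CPM, against 139, 156 and 156 CPM with cGAMP alone. It fell by 0.47 ± 0.13 against DMSO and by 0.72 ± 0.14 on cGAMP. The neighbouring gene Mpp1 overlaps Dkc1 at nearly the same mean level (129.6 against 129.9 CPM for Dkc1) and its log2 fold change with SB24011 was 0.56, in the other direction.

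Dkc1 acts with Gar1 and Nhp2 in box H/ACA snoRNPs. Nhp2 fell by 0.43 ± 0.08 with SB24011 against DMSO and by 0.26 ± 0.08 at 20 uM on cGAMP. The last call ended without replicate 1 of cGAMP with 20 uM SB24011 (-0.19, edgeR adjusted p = 0.0637) and without library set 2 or 3. Gar1 fell by 0.24 ± 0.08 against DMSO and by 0.28 ± 0.08 at 20 uM on cGAMP. The call against DMSO ended without DMSO replicate 2 (-0.21) or 3 (-0.22), and without SB24011 replicate 1 (-0.21) or 2 (-0.22). The call on cGAMP ended if cGAMP replicate 2 (-0.21) or the first library of cGAMP with 20 uM SB24011 (-0.22) was left out. Leaving out library set 2 or 3 ended both Gar1 calls, and library size alone and limma also ended that against DMSO. The call against DMSO held in 8 of 17 alternatives and that on cGAMP in 13. Fbl encodes fibrillarin, the methyltransferase of box C/D snoRNPs, of which Nop56 and Nop58 are the core proteins. Fbl fell by 0.32 ± 0.08 and Nop58 by 0.24 ± 0.06 with SB24011 against DMSO, while Nop56 differed by -0.05 ± 0.07 and was not called. At 20 uM on cGAMP, Nop58 fell by 0.24 ± 0.06, and Fbl differed by -0.17 ± 0.08 without a call.

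The 12 small subunit genes were the most divided, with 5 lower and 1 higher against DMSO, 5 lower and 1 higher at 10 uM on cGAMP and 6 lower and 2 higher at 20 uM. Tsr1, whose yeast counterpart acts late in small subunit maturation, changed most of those that fell. It had 101, 118 and 105 CPM with SB24011 alone, against 146, 162 and 158 CPM in DMSO. With cGAMP and 20 uM SB24011 it had 86.5, 95.5 and 97.1 CPM, against 147, 147 and 148 CPM with cGAMP alone. The groups were apart in both settings, with falls of 0.52 ± 0.07 (edgeR adjusted p = 1.54e-05) and 0.66 ± 0.07 (edgeR adjusted p = 1.58e-06). Utp4, a part of the early UtpA complex on the precursor RNA, fell by 0.36 ± 0.08 against DMSO and by 0.53 ± 0.08 on cGAMP at 20 uM. Utp20, a scaffold of the small subunit processome, fell by 0.32 and 0.27, and Bysl, the counterpart of yeast Enp1, by 0.33 and 0.24.

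Nop14, an assembly factor of the small subunit processome (chromosome 5, 34638536 to 34660148), moved the other way. It had 130.1, 133 and 130.3 CPM with SB24011 alone, against 98.5, 112 and 101 CPM in DMSO. With cGAMP and 20 uM SB24011 it had 110.4, 117 and 114 CPM, and at 10 uM 107, 112 and 119 CPM, against 81.4, 97.5 and 95.4 CPM with cGAMP alone. In each setting every library with SB24011 exceeded every library of its own control. Nop14 rose by 0.34 ± 0.07 against DMSO (edgeR adjusted p = 0.000962), by 0.32 ± 0.07 at 20 uM on cGAMP and by 0.30 ± 0.07 at 10 uM, and these calls held under the 17 alternatives. Rrp12, whose yeast counterpart acts in subunit export, had 113, 119 and 112 CPM with cGAMP and 20 uM SB24011, against 102, 104 and 101 CPM with cGAMP alone. It rose by 0.16 ± 0.05 (edgeR adjusted p = 0.0121), a call that ended without replicate 2 of cGAMP with 20 uM SB24011 (0.14, edgeR adjusted p = 0.0528). The call also ended with only the groups compared and without library set 2 or 3, and held in 13 of 17 alternatives. The differences of Rrp12 against DMSO (0.07) and at 10 uM (0.11) were not called.

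Heatr1 and Utp15, further UtpA members, each fell by 0.17 ± 0.06 at 20 uM on cGAMP, and Utp15 also fell by 0.21 ± 0.06 against DMSO. Both calls on cGAMP ended without cGAMP replicate 2 (-0.15 for Heatr1, -0.17 for Utp15) or 3 (-0.16 and -0.15). They also ended without replicate 1 (-0.16 for both) or 3 (-0.11 and -0.14) of cGAMP with 20 uM SB24011. Library size alone, only the groups compared and leaving out library set 1 or 3 ended both as well. The Heatr1 call was also lost with no filter on low counts and the Utp15 call without library set 2. Each held in 8 of 17 alternatives. The UtpA genes Wdr43 and Wdr75, the U3 snoRNP gene Rrp9 and the late factor gene Ltv1 were not called with SB24011 in either setting. Against DMSO the log2 difference was -0.10 for Wdr43, 0.05 for Wdr75, -0.12 for Rrp9 and 0.01 for Ltv1, and with the replicate block Rrp9 was called (edgeR adjusted p = 0.0487).

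Of the 9 large subunit genes, 8 fell with SB24011 against DMSO, 7 at 10 uM on cGAMP and 6 at 20 uM, and none rose. Nop16 (chromosome 13, 54584191 to 54590097), a large subunit assembly factor, had 58.8, 68.6 and 66.4 CPM with SB24011 alone, against 96.7, 106 and 99.8 CPM in DMSO. With cGAMP and 20 uM SB24011 it had 47.7, 58.5 and 57.5 CPM, against 91.7, 92.2 and 91.2 CPM with cGAMP alone. Its libraries did not overlap in either setting, and it fell by 0.64 ± 0.10 (edgeR adjusted p = 3.94e-05) and 0.75 ± 0.10 (edgeR adjusted p = 1.12e-05). Cebpz, the counterpart of the yeast factor Noc1, had 98.2, 96.0 and 102.5 CPM with SB24011 alone, against 143, 151 and 150.1 CPM in DMSO, and fell by 0.58 ± 0.06 both against DMSO and at 20 uM on cGAMP. Rrs1, which in yeast helps to bring in the 5S RNA, fell by 0.45 ± 0.06 and 0.51 ± 0.06.

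Nop2, an rRNA methyltransferase gene, fell by 0.41 ± 0.07 with SB24011 against DMSO and by 0.46 ± 0.07 at 20 uM on cGAMP. Gnl3, which encodes nucleostemin, fell by 0.30 ± 0.08 and 0.39 ± 0.08. Pes1, Bop1 and Wdr12 form the PeBoW complex, which is needed to process the large subunit precursor. Wdr12 fell by 0.34 ± 0.09 against DMSO and by 0.37 ± 0.09 on cGAMP, Bop1 fell by 0.35 ± 0.09 against DMSO, and Pes1 fell by 0.16 ± 0.05 against DMSO. At 20 uM on cGAMP, Bop1 differed by -0.23 and Pes1 by -0.12 without a call. The Pes1 call against DMSO ended without DMSO replicate 1 (-0.15) or SB24011 replicate 1 (-0.14). It also ended with library size alone, with limma at both pseudocounts and without any 1 library set, and held in 9 of 17 alternatives. Ebna1bp2, a partner of the early large subunit, was not called in any comparison by the fit without a replicate block, while the fit with it called its difference of -0.12 with SB24011 against DMSO (edgeR adjusted p = 0.0442).

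**Figure D2:**
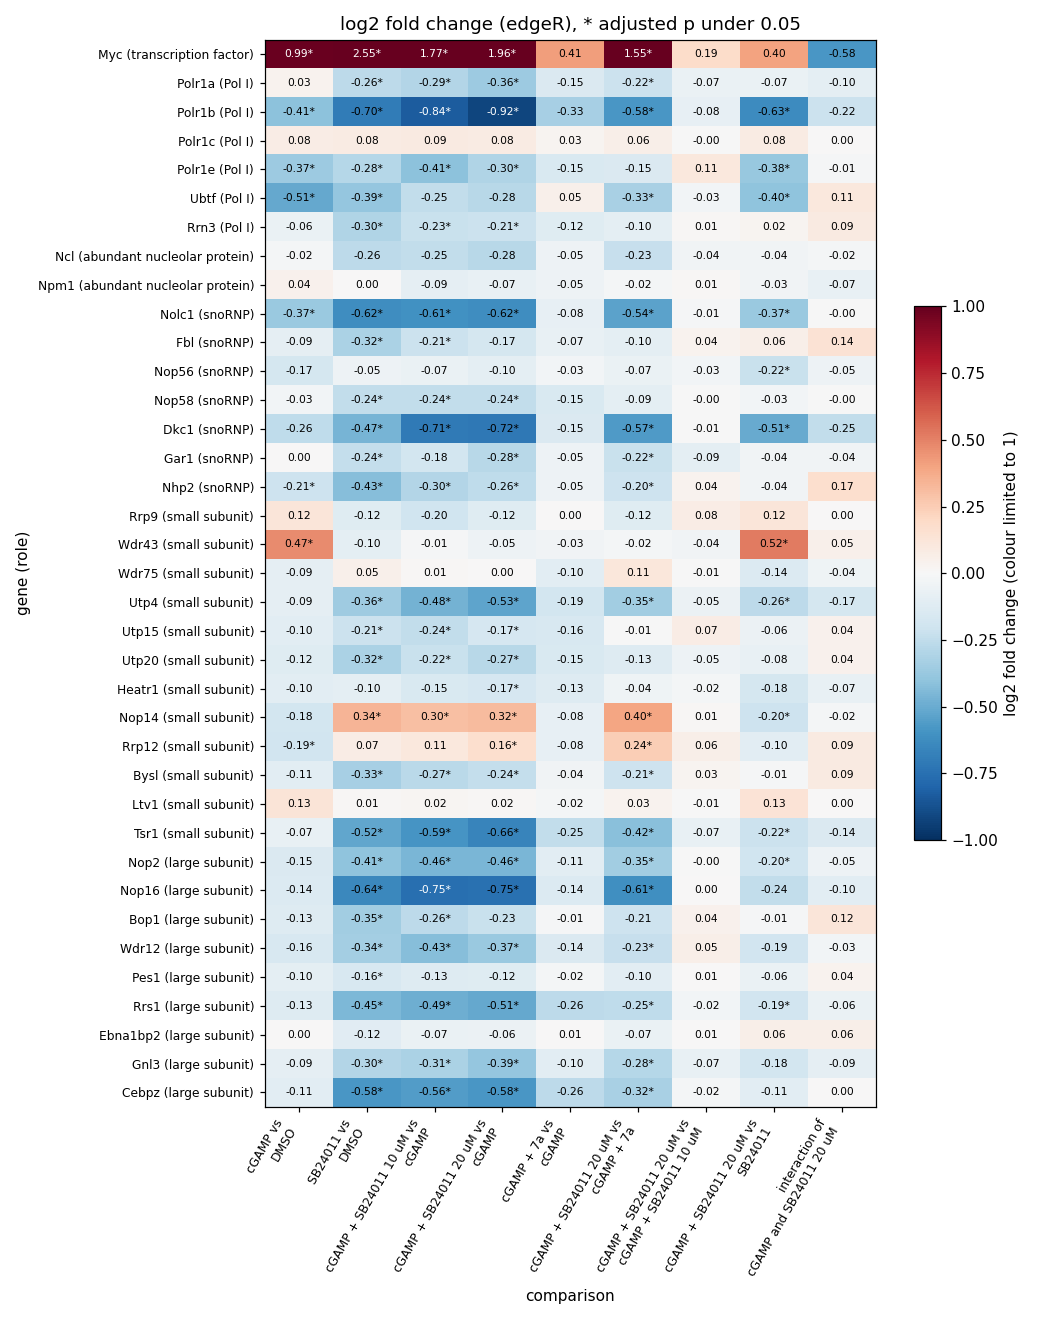
log2 fold changes of the 37 genes (rows, with the role of each) in the 9 comparisons (columns), with the value in each cell, a star at an edgeR adjusted p under 0.05 and colour limited to 1 in either direction. Blue fills most of the 3 columns that add SB24011, and Myc and Nop14 are red there.

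The change with 20 uM SB24011 was of similar size without and with cGAMP. The 2 contrasts share no library, and 20 genes fell and 2 (Myc and Nop14) rose in both, with no gene called in opposite directions. Bop1, Fbl, Ubtf and Pes1 were called lower only against DMSO and Heatr1 only on cGAMP, but none of these differences between the contrasts was itself called. Over the 36 genes without Myc the 2 sets of log2 fold changes had a Pearson r of 0.937 (0.97 with Myc), given as a description, since the genes come from the same libraries and 1 fit. The interaction of cGAMP and SB24011 was called for 0 of 37 members by edgeR and by DESeq2, with 0 at an unadjusted p under 0.05, where 0.369% of all genes were called. For Myc the interaction was -0.58 on the log2 scale with a 95% interval of -1.44 to 0.27, and for Polr1b it was -0.22 with an interval of -0.50 to 0.06. With 20 against 10 uM SB24011 on cGAMP, 0 members were called by edgeR and by DESeq2, again with 0 at an unadjusted p under 0.05, and 0% of all genes were called by edgeR (404 of 14650 had an unadjusted p under 0.05). The intervals for 20 against 10 uM ran from -0.38 to 0.75 for Myc, -0.28 to 0.12 for Polr1b and -0.14 to 0.17 for Nop14.

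**Figure D3:**
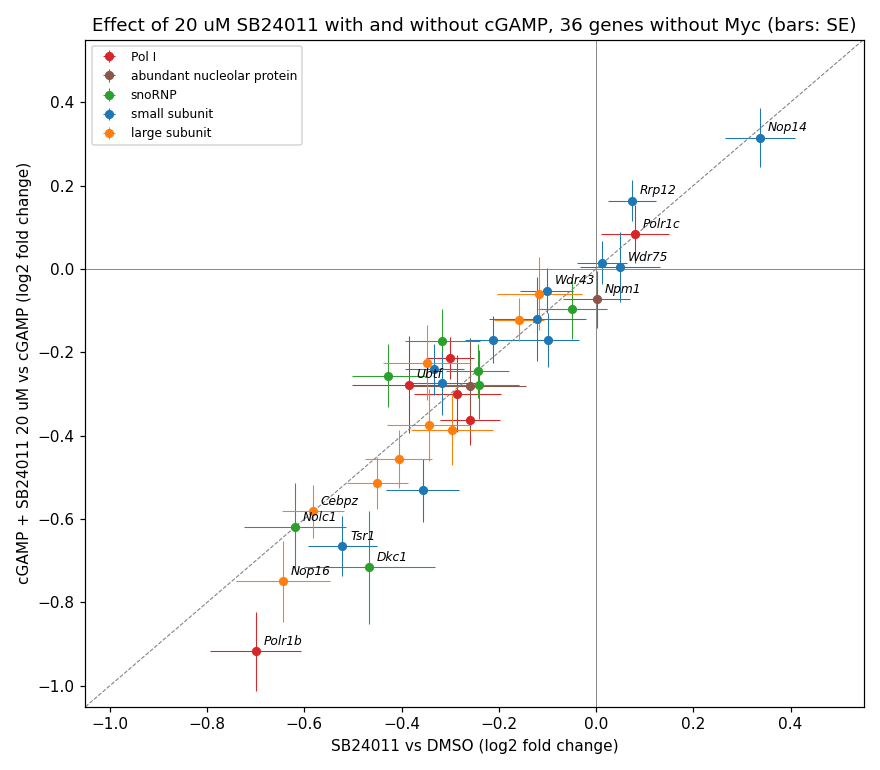
log2 fold change with 20 uM SB24011 on cGAMP (vertical axis) against the log2 fold change with SB24011 against DMSO (horizontal axis) for the 36 genes without Myc, coloured by role, with SE bars and a dashed line of equality. The points follow the line from Polr1b (-0.70 and -0.92) to Nop14 (0.34 and 0.32).

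With cGAMP by itself against DMSO, 6 members fell (Polr1b, Polr1e, Ubtf, Nolc1, Nhp2 and Rrp12) and 2 rose (Myc and Wdr43), where 19.8% of all genes fell and 15.6% rose (35.4% called in either direction). The members' median was -0.10 and that of all genes -0.06. Wdr43, a UtpA gene (chromosome 17, 71616178 to 71659031), had 293, 299 and 314 CPM with cGAMP, against 207, 225 and 221 CPM in DMSO. It had 288, 297 and 288 CPM with cGAMP and 20 uM SB24011, against 196, 205 and 208 CPM with SB24011 alone. Its libraries split by cGAMP with no overlap, and it rose by 0.47 ± 0.05 (edgeR adjusted p = 3.50e-06) and, in the presence of SB24011, by 0.52 ± 0.05 (edgeR adjusted p = 1.40e-06), under all 17 alternatives in both cases.

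Ubtf had 106, 129 and 123 CPM with cGAMP, against 162, 178 and 172 CPM in DMSO, and fell by 0.51 ± 0.12. Polr1b fell by 0.41 ± 0.09, Polr1e by 0.37 ± 0.09, Nolc1 by 0.37 ± 0.10, Nhp2 by 0.21 ± 0.08 and Rrp12 by 0.19 ± 0.05 with cGAMP against DMSO. The Nolc1 call ended without cGAMP replicate 1 (-0.32, edgeR adjusted p = 0.0544), and the Nhp2 call ended without any 1 of the 6 libraries (-0.23 to -0.17). Leaving out library set 2 or 3 ended the calls of Nolc1, Nhp2 and Rrp12. The Nhp2 call was also lost with RLE size factors and with DESeq2, and held in 7 of 17 alternatives. Without cGAMP replicate 1 the count of members called was 5 in place of 8, where 28% of all genes were called in place of 35.4%. The count rested on the scaling: with library size alone, which moved the median of all genes to -0.19, 24 members fell and 2 rose, where 35.1% of all genes fell and 11.6% rose, and 24.9% of all called genes were higher in place of 44.1%. Members called were thus 26 with cGAMP and 20 with SB24011, each against the same DMSO libraries, under library size alone, and 8 and 26 under TMM. The shares of all genes called were 46.8% and 43.1% under library size alone, and 35.4% and 44.6% under TMM. Ubtf, Polr1b, Polr1e and Wdr43 were called under all 17 alternatives.

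In the presence of 20 uM SB24011, cGAMP lowered 11 members and raised 1, where 12.4% of all genes fell and 15% rose (27.4% called in either direction). Polr1b, Ubtf, Polr1e and Nolc1 fell here as they did without SB24011, by 0.63, 0.40, 0.38 and 0.37 on the log2 scale. The others that fell were Dkc1 (-0.51), Utp4 (-0.26), Nop56 (-0.22), Tsr1 (-0.22), Nop14 (-0.20), Nop2 (-0.20) and Rrs1 (-0.19). This count was unstable. It was 5 without SB24011 replicate 2 (21.8% of all genes called) and 7 without SB24011 replicate 3 (22.1%). Without replicate 1 of cGAMP with 20 uM SB24011 it was 3 (20.2%), and 2 calls (Polr1b and Wdr43) held under all 17 alternatives. With the replicate block, which pairs the libraries here, 16 members fell and 2 rose, where 17.1% of all genes fell and 18.6% rose, and the calls gained were Wdr75 (-0.14), Heatr1 (-0.18), Nop16 (-0.25), Wdr12 (-0.19) and Gnl3 (-0.19), all lower, and Ltv1 (0.13), higher. With library size alone 26 members fell and 1 rose, where 32.5% of all genes fell and 10.4% rose. Of all called genes, 24.2% were then higher in place of 54.7%. Myc differed by 0.40 ± 0.27 and was not called.

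The analog 7a was compared with SB24011 at the matched dose of 20 uM, each on cGAMP. No member was called with 7a against cGAMP alone by edgeR, and 0% of all genes were called (1208 of 14650 genes had an unadjusted p under 0.05). At an unadjusted p under 0.05 there were 9 members, all lower: Polr1a, Polr1b, Rrn3, Nop58, Utp4, Utp15, Tsr1, Rrs1 and Cebpz. DESeq2 called 2 members (Rrs1 and Cebpz), where it called 0.259% of all genes. The fit with the replicate number as a block, which pairs the libraries in this comparison, called Cebpz (edgeR adjusted p = 0.0414), where 0.0546% of all genes were called. Polr1b had 36.6, 42.6 and 51.9 CPM with 7a on cGAMP, against 52.9, 58.2 and 54.1 CPM with cGAMP alone, with no overlap and a log2 difference of -0.33 (95% interval -0.53 to -0.14). Cebpz had 107, 109 and 129 CPM with 7a on cGAMP, against 132, 139 and 141 CPM with cGAMP alone, again with no overlap and a difference of -0.26 (95% interval -0.39 to -0.12).

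The replicate 3 library with 7a stood apart from replicates 1 and 2 of its group. Within library sets 1 and 2, 36 and 37 of the 37 members were lower with 7a than with cGAMP alone. Their median log2 differences were -0.13 and -0.12, against -0.004 and -0.003 over all genes. Within a set the members share 1 library per group, so they are not independent observations. Within set 3, 20 were lower and 17 higher, with a median of -0.02, against -0.007 over all genes. The Myc difference there was 1.20, against -0.07 in set 1 and -0.03 in set 2. Without that library 4 members were called lower, namely Polr1b (-0.48), Utp4 (-0.31), Rrs1 (-0.36) and Cebpz (-0.35), where 0.322% of all genes were called.

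Set directly against 7a, 16 members were lower and 3 higher with SB24011, where 16.7% of all genes fell and 19.7% rose (36.4% called in either direction). Myc was higher with SB24011 by 1.55 (95% interval 0.96 to 2.14), Nop14 by 0.40 ± 0.07 and Rrp12 by 0.24 ± 0.05. The largest falls were in Nop16 (-0.61), Polr1b (-0.58, interval -0.78 to -0.39), Dkc1 (-0.57) and Nolc1 (-0.54). For the 18 members without a call the intervals bound the difference between the compounds. Examples are -0.13 to 0.11 for Utp15, -0.20 to 0.01 for Rrn3, -0.17 to 0.13 for Npm1 and -0.34 to 0.05 for Polr1e. The widest was -0.47 to 0.02 for Ncl. That of Bop1 (-0.40 to -0.02) left out 0, though Bop1 was not called (edgeR adjusted p = 0.0786). The count of 16 lower was 10 without replicate 1 of cGAMP with 20 uM SB24011, where 15% of all genes fell. It was also 10 without 7a replicate 3, where 13.7% of all genes fell.

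**Figure D4:**
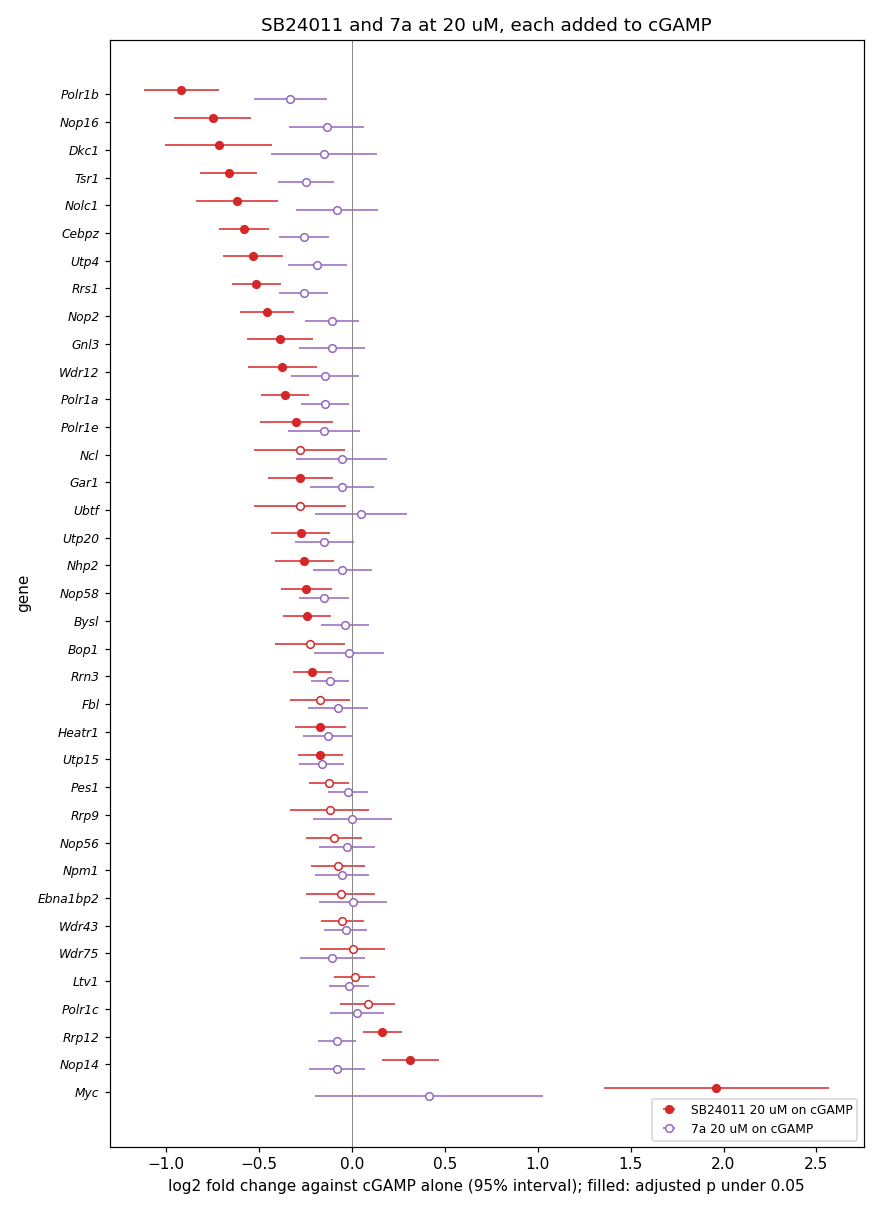
log2 fold change against cGAMP alone (horizontal axis, with 95% intervals) of each of the 37 genes (rows) with 20 uM SB24011 on cGAMP (red) and 20 uM 7a on cGAMP (purple), with filled points at an edgeR adjusted p under 0.05. The red points spread from -0.92 (Polr1b) to 1.96 (Myc), and the purple points are all open.

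The members have further features in common. In the RefSeq annotation of GRCm38.p6, 7 of 37 hold at least 1 small nucleolar RNA within the gene (18.9%: Ncl, Nop56, Nop58, Dkc1, Wdr43, Tsr1 and Gnl3), against 2.38% of 11859 protein-coding genes tested. With SB24011 against DMSO, 4 of these 7 fell (Nop58, Dkc1, Tsr1 and Gnl3), as did 20 of the 30 others. Another tested gene overlaps 11 members, and each member had the higher mean level of the pair. The pairs were close for Dkc1 with Mpp1, for Bysl with the cyclin gene Ccnd3 (65.1 and 59.5 CPM), which fell by 1.07 with SB24011, and for Bop1 with Mroh1 (127 and 87.9 CPM). Libraries were stranded, but the strand setting of the counting is not given in the sources used here, so reads from such pairs may be shared.

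The rest of the pathway was examined with 9 further lists that leave the members out. Their counts stand beside 24.3% of all genes lower and 20.4% higher with SB24011 against DMSO, and 20.6% lower and 21.7% higher at 20 uM on cGAMP. With SB24011 against DMSO, 11 of 17 other genes of Pol I and its factors fell (64.7%) and 3 rose, with a median log2 fold change of -0.30. Cd3eap, another Pol I subunit gene, fell by 0.98 ± 0.15 (edgeR adjusted p = 5.05e-05), while Taf1b, a part of the selectivity factor that loads Pol I, rose by 0.52 ± 0.06, and Tcof1, the gene of treacle, rose by 0.30 ± 0.06. On cGAMP at 20 uM, 10 of 17 fell (58.8%) and 2 rose, with Cd3eap at -0.83 and Taf1b at 0.46. Of 52 other large subunit factors, 22 fell (42.3%) and 5 rose against DMSO and 25 fell (48.1%) and 2 rose on cGAMP, with Nol9, a kinase of rRNA processing, at -0.63 and -0.70. Of 44 other small subunit factors, 19 fell (43.2%) and 6 rose against DMSO and 15 fell (34.1%) and 5 rose on cGAMP. Among 11 other snoRNP genes, 6 fell and 1 rose against DMSO with a median log2 fold change of -0.32, and 5 fell and 1 rose on cGAMP with a median of -0.04. Of these, Nop10, the fourth core protein of box H/ACA snoRNPs beside the products of Dkc1, Gar1 and Nhp2, fell by 0.73 ± 0.08 and by 0.82 ± 0.08 on cGAMP. Of 15 genes of the RNA exosome, which trims precursor RNA, 9 fell (60%) and none rose against DMSO, and 8 fell (53.3%) and 2 rose on cGAMP. For Pol III, which makes the 5S RNA and transfer RNAs, 10 of 22 fell (45.5%) and 3 rose (13.6%) against DMSO. On cGAMP 4 fell (18.2%) and 3 rose (13.6%), and both shares were below those of all genes.

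Most of the listed Myc targets that were called fell while Myc rose. Of 35 listed Myc targets outside ribosome biogenesis, 21 fell (60%) and 4 rose (11.4%) with SB24011 against DMSO, and 14 fell (40%) and 4 rose (11.4%) at 20 uM on cGAMP. The cyclin gene Ccnd2 rose by 1.99 ± 0.32 and by 1.71 ± 0.29, and Eif4ebp1, which encodes an inhibitor of translation initiation, rose by 1.16 ± 0.07 and 1.17 ± 0.07. The cell cycle phosphatase gene Cdc25a fell by 1.02 ± 0.09 and 0.79 ± 0.09, and Pcna, the clamp of DNA polymerases, by 1.01 ± 0.07 and 0.68 ± 0.07. Of 15 Myc partners, rivals and turnover factors, 5 fell (33.3%) and 1 rose (6.67%) against DMSO, and the paralog Mycn fell by 0.52 ± 0.08. With cGAMP against DMSO, Max, the obligate partner of Myc, rose by 1.01 ± 0.06, and Mxd1, which competes with Myc for Max, rose by 1.72 ± 0.25. Of 24 p53 targets and nucleolar stress genes, 9 fell (37.5%) and 6 rose (25%) with SB24011 against DMSO, where 24.3% of all genes fell and 20.4% rose. At 20 uM on cGAMP, 5 fell and 5 rose (20.8% each), near the shares of all genes (20.6% and 21.7%). The largest rise against DMSO was in Sesn2 (1.91 ± 0.15), which p53 and other stress factors induce.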

How the data were processed

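Polyadenylated RNA was sequenced from 18 libraries of RAW264.7 cells, prepared with a stranded mRNA kit per the labels' protocols. Tools listed in the submitters' processing notes are StringTie 2.1.3b, Bowtie2 2.3.4.1, HISAT2 2.1.0 and Trimmomatic 0.38, and the build is GRCm38 (mm10). The step each served, the counting program and its strand setting were not given in the sources used here. Per the file headers, the main deposited table has a raw read count for every gene and library. It also holds the authors' FPKM values, used to compare levels between genes and in an alternative test, and the authors' TPM values, not analysed here. A second deposited table of log2 values normalized over libraries was not used. Members were matched by exact symbol. Of the listed cell type markers, 1 is not reported here. RefSeq tables of GRCm38.p6 gave gene coordinates and promoters.

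Counts were fitted with edgeR 4.0.16 in R 4.3.3 (filterByExpr, TMM, 1 robust quasi-likelihood model over 18 libraries with 12 residual degrees of freedom, prior count 0.125). Of 9 comparisons, 8 set a group against another and the last was the interaction between cGAMP and SB24011 (20 uM). Tests were two-sided, with Benjamini-Hochberg adjustment over 14650 genes. The SE comes from the F statistic, and intervals are 95%. Members and lists were chosen with earlier results of these data known, so they are described by counts beside the share of all genes called. From each further list up to 2 called genes with the largest rise and up to 2 with the largest fall per comparison, at a mean of at least 1 CPM, could be named. Mpp1, Ccnd3 and Mroh1 are named for their overlap.

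Alternatives were RLE size factors, library size alone, no filter, a replicate block, DESeq2 1.42.0, limma 3.58.1 on log2(FPKM + 1) and log2(FPKM + 0.1), a fit of the compared groups alone, and each library and each library set left out. Where a group was left with 2 libraries, the spread was pooled over all groups. On counts simulated for SB24011 against DMSO (14422 genes), the test recovered 79.8% of the genes changed by 1 on the log2 scale and 44% of those changed by 0.5. Only 100 genes of each size were changed, far fewer than the 44.6% of genes called in the data. These rates therefore do not give the power of the test on the data.

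The library numbers in the labels form 3 sets, 1 library of each group in a set. Deviations of the libraries from their group means were correlated. Every same-set pair exceeded 0.1 for SB24011 against DMSO (r of 0.125 to 0.178), 7a on cGAMP (0.137 to 0.183) and cGAMP on SB24011 (0.105 to 0.176), so the numbers pair the libraries there. Replicate libraries of a group differed by more than counting error in every pair.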

Additional observations from a re-analysis of the deposited data

Results flagged for a closer look

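The effect of 20 uM SB24011 differed with cGAMP for 1 gene of the lists examined, Pelp1, which encodes a scaffold of a large subunit release complex and is not among the 37 members. Pelp1 had 54.1, 54.3 and 55.5 CPM with cGAMP and 20 uM SB24011, against 62.2, 60.4 and 62.8 CPM with cGAMP alone, and 56.4, 57.0 and 58.0 CPM with SB24011 alone, against 81.6, 77.7 and 83.5 CPM in DMSO. It fell in both settings, by 0.18 ± 0.04 with cGAMP and by 0.50 ± 0.04 without it on the log2 scale. The difference of these changes was 0.324 ± 0.0575 (edgeR adjusted p = 0.0164). The call ended with library size alone (0.28, adjusted p = 0.140), with limma on FPKM (adjusted p = 0.103 and 0.139), with only the compared groups (adjusted p = 0.194), without DMSO replicate 1 (adjusted p = 0.0507) or 3 (0.0652), without cGAMP replicate 1 (0.0504) or 2 (0.0600), and without any 1 library set. Its cause was not tested.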

How the results depend on the processing

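No called change of a member turned its direction under the 17 alternatives. Rrn3 with cGAMP on SB24011, uncalled at 0.02, was called lower with library size alone (-0.15) and with limma (-0.136 and -0.141 at pseudocounts of 1 and 0.1). Percentages beside the counts that follow are of all genes called under the same setting. The count of members called with cGAMP against DMSO (8, 35.4%) was 26 with library size alone (46.8%). It was 24 and 25 with limma (45.1% and 45.3%) and 15 with the replicate block (43.8%). It was 5 without library set 2 (23.4%) and 4 without set 3 (25.2%). With cGAMP on SB24011 (12, 27.4%) the count was 27 with library size alone (42.9%) and 26 and 26 with limma (41.5% and 40.7%). It was 6, 2 and 7 without sets 1, 2 and 3 (19.7%, 15.7% and 21.1%). With library size alone the median of all genes was -0.19 in place of -0.06 in the first and -0.18 in place of -0.01 in the second. The count with 20 uM SB24011 on cGAMP (24, 42.3%) was 15 without set 3 (29.8%). Against 7a (19, 36.4%) it was 11 with only the groups compared (27.9%), 12 without set 2 (24.4%) and 10 without set 3 (21.7%). With 7a on cGAMP (0, 0%) it was 1 with the replicate block (0.0546%) and 2 with DESeq2 (0.259%). With 1 library left out the counts ranged from 5 to 8 for cGAMP against DMSO, 24 to 25 for SB24011 against DMSO, 20 to 25 and 19 to 26 for 10 and 20 uM SB24011 on cGAMP, 0 to 4 for 7a, 13 to 21 for SB24011 against 7a and 3 to 12 for cGAMP on SB24011. The shares of all genes called were 28 to 31.3%, 37.8 to 39.8%, 32.6 to 33.7%, 35.5 to 39.3%, 0 to 0.322%, 29.9 to 33.5% and 20.2 to 27.7% in that order. With 1 library set left out the counts were 4 to 7, 18 to 25, 16 to 25, 15 to 24, 0 to 0, 10 to 20 and 2 to 7 in the same order. The shares of all genes were then 23.4 to 27.2%, 31.9 to 38.6%, 26.5 to 33%, 29.8 to 35.4%, 0 to 0.0271%, 21.7 to 32.8% and 15.7 to 21.1%. The replicate block gave 29 members for SB24011 against DMSO (53.3% of all genes called, with Ncl, Rrp9 and Ebna1bp2 gained) and 18 for cGAMP on SB24011 (35.7% of all genes called, with 6 gained), where the numbers pair the libraries. Elsewhere not every same-set pair exceeded an r of 0.1, though the lowest for 10 uM SB24011 on cGAMP was 0.0908. There the block gave 30 and 29 for 10 and 20 uM SB24011 on cGAMP (48% and 51.2% of all genes called) and 23 against 7a (45.6%). Each of 18 libraries correlated best with its own set, a hint from the data that the sets span all groups. The median r was 0.122 within a set and -0.0612 between libraries of other sets and groups. The main fit had no block in any comparison. The dose comparison and the interaction gave 0 under every alternative. The causes of these shifts were not tested. Myc had 79 to 895 counts per library, the fewest of the members, and the effect of depth on the calls was not tested.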
